A study of Mus musculus with 12 samples.

Results

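Retinal ganglion cells send their axons through the optic nerve, and one class of them, the intrinsically photosensitive ganglion cells (ipRGCs), makes the photopigment melanopsin and senses light directly. The comparison described here set optic nerve crush against sham surgery within these cells. It used 6 of the 12 samples of a mouse RNA sequencing study on regulators of axon regeneration, namely the 3 titled Opn4 with crush and the 3 titled Opn4 with sham, and covered the 18269 genes that passed a filter on low values, of 38887 in the deposited table. The samples were chosen by their titles alone, with no measured value.

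Opn4 crush samples came from Opn4CreERT/+;R26-tdTomatof/f mice whose optic nerve was crushed at postnatal day 42, and Opn4 sham samples from mice of the same genotype that had a sham operation at that age. Retinas of both groups were taken 3 days later. In these mice a Cre recombinase driven by Opn4 and switched on by tamoxifen turns on the red protein tdTomato. Both groups received tamoxifen at 0.124 mg per g of body weight on 5 days in a row from postnatal day 21, so the Cre, the drug and the reporter were common to crush and sham. The reporter marks a cell that made the Cre when tamoxifen was given, whether or not it still made melanopsin when it was picked. Papain (17 U per ml, 37 °C, 30 minutes) freed the cells, and single red cells were picked by pipette for up to 2 hours after death. Each animal gave 10 cells, and 3 such pools were joined into 1 sample of 30 cells, so a sample mixes animals. The p-values measure the spread between such samples. The 6 remaining samples, HB9 crush and HB9 sham, came from HB9:GFP mice that had also received tamoxifen, and enter here only through the shared fit. There they add to the estimate of each gene's spread, and so to its standard error and p-value. In a pool, fewer cells of a type and less RNA per cell cannot be told apart.

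As background, an axotomised neuron passes an injury signal from its axon to its nucleus, partly through the kinases DLK and JNK, which act on the transcription factor JUN. In mouse ganglion cells this signal is known to drive both death and regrowth programmes, with ATF3, JUN and the DNA damage and stress factor DDIT3 (CHOP) among its nuclear arms. Most ganglion cell types are lost in the weeks after a crush, and ipRGCs are known in mice and rats for surviving it comparatively well.

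Values are RPKM, read counts divided by gene length and by the library's total, as deposited by the authors. The totals by which libraries had been scaled, read back from the values, were 17328143, 18121564 and 21159095 reads for crush 1 to 3 and 22905890, 15104446 and 21500526 reads for sham 1 to 3. Between 15608 and 15710 genes reached 1 RPKM in the crush libraries, and between 15021 and 16461 in the sham libraries. A pair of libraries stood apart: sham 1 lay at -108 on the leading principal component of the 6 libraries, and crush 1 at 94.2 on the next, beyond all others on each.

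Few genes passed the threshold given below. With n = 3 per group, a gene that did not pass is not thereby shown to be unchanged. Changes are differences of mean log2(RPKM + 1), crush minus sham, with the standard error of a limma fit of all 12 libraries in which the Opn4 libraries carried a lower weight for their wider spread (n = 3 per group). At a Benjamini-Hochberg adjusted p under 0.05, 67 genes changed, which is 0.367% of those tested. Of these, 50 rose, 0.274% of those tested, and 17 fell, 0.0931%. More than 4-fold on this scale, 27 rose and 11 fell. The 3 crush libraries lay wholly above or wholly below the 3 sham libraries in all 67, but that alone is common: over all genes tested, crush was wholly above sham in 7.38% and wholly below it in 7.33%. Before adjustment, 1712 of the 18269 genes tested had p under 0.05 in the limma fit. The median change over all genes was -0.02. With equal weights 203 genes passed (1.11%), 126 of them higher (0.69%) and 77 lower (0.421%), and the fit of the 6 Opn4 libraries alone gave 13.

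Most calls were lost in at least 1 of the 6 fits that left a library out. Leaving out sham 1, 2 or 3 left 30, 25 and 17 of the 67 genes past the threshold, and leaving out crush 1, 2 or 3 left 42, 26 and 19. Without both libraries that stood apart, a setting chosen after the data were seen, 19 remained. A group of 12 gene entries passed whichever library was left out, among them Jun, Jund, Atf3, Thbs1, Tnfrsf12a, Ecel1, Ret, Rhoq, the predicted gene Gm11175 and the 2 entries named Gm13889. Of those named, Jun, Jund, Atf3 and Gm11175 passed under each of the 18 alternatives tried. The 67 are also fewer than 67 independent signals, since joining called genes that share sequence or overlap on the genome leaves 55 groups, 43 higher and 12 lower.

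**Figure D1:**
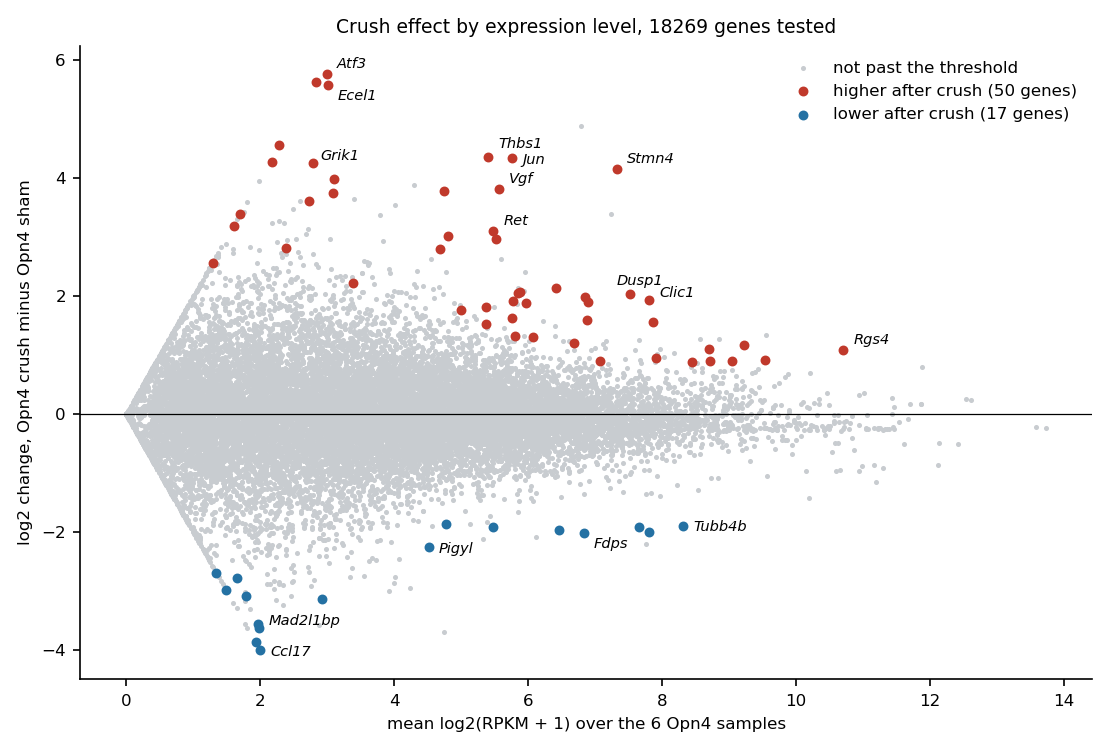
Change after crush (vertical axis, difference of log2(RPKM + 1), Opn4 crush minus Opn4 sham) against mean level over the 6 Opn4 libraries (horizontal axis, log2(RPKM + 1)) for 18269 genes. The 50 genes that rose are red, the 17 that fell are blue, and large rises such as those of Atf3 and Ecel1 start from almost nothing in sham cells.

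The picked cells carried the RNA of ipRGCs in both groups. Melanopsin itself (Opn4, chr14:34590618-34600142 on mm10, the build of all gene positions here) stood at 1433, 1335 and 1313 RPKM in crush 1 to 3, against 1701, 1255 and 1773 RPKM in sham 1 to 3. The groups overlapped, and the fitted difference was -0.20 ± 1.30 (adjusted p = 0.988). As for every gene here, that standard error draws on the HB9 libraries too, so it is not the spread of these values alone. The Opn4 (ENSMUSG00000021799) log2 change was 0.068 with quantile normalization and -0.99 with the rod covariate. Eomes, a transcription factor that maintains ipRGCs, stood at 200, 222 and 239 RPKM after crush, against 422, 322 and 408 RPKM after sham. Every crush library was below every sham library, with a difference of -0.79 ± 0.44 that did not pass (adjusted p = 0.629).

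None of the 10 ipRGC markers passed, 7 of the differences were below 0 and the median was -0.49, beside -0.02 over all genes. The 5 whose groups did not overlap were all lower after crush, where 7.33% of all genes were wholly below and 7.38% wholly above, and of these Trpc7, Gna14 and Prkcd are named after their values were seen. Trpc7, a subunit of the channel opened by melanopsin signalling, was at 52.7, 27.9 and 23.9 RPKM in crush, against 141, 149 and 136 RPKM in sham. Its difference of -2.08 ± 0.45 missed the threshold (adjusted p = 0.0898) and passed with equal weights (0.0209). Neuromedin B (Nmb), a peptide precursor of ipRGCs, stood at 52.6, 134 and 144 RPKM against 548, 298 and 605 RPKM, a difference of -2.19 ± 0.79 (adjusted p = 0.381). Gna14, a G protein subunit of the phototransduction cascade, differed by -1.06 ± 0.43, and Prkcd, a protein kinase C, by -0.79 ± 0.89. The peptide precursor Adcyap1 (PACAP), released by ipRGCs onto brain targets, overlapped between groups at 918, 519 and 701 RPKM after crush and 616, 442 and 769 RPKM after sham.

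Of 17 tested partners of the melanopsin cascade 1 rose, beside 0.274% of all genes called higher. Rgs4, which speeds GTP hydrolysis by Gq and Gi proteins, stood at 1875, 2512 and 3116 RPKM in crush, against 1194, 1189 and 1054 RPKM in sham. All 3 crush libraries were higher, by 1.10 ± 0.18 (adjusted p = 0.0206), though the call was lost without crush 2 or 3 or any sham library (adjusted p up to 0.129). The other 16 tested partners did not pass, and the list median was 0.25. Among the most abundant, Gnas differed by -0.08 ± 0.17 and the calcineurin subunit Ppp3ca by -0.50 ± 0.22. Prkcb, a conventional protein kinase C, stood at 92.1, 83.8 and 67.4 RPKM after crush, all above 61.6, 32.6 and 40.2 RPKM after sham, and did not pass (0.88 ± 0.27, adjusted p = 0.266).

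No gene shared by ganglion cells passed. The 25 differences ran from -1.44 to 1.28, with a median of -0.16. Slc17a6, which loads glutamate into vesicles, was at 155, 231 and 258 RPKM in crush and 216, 208 and 199 RPKM in sham. The sign of its difference (0.02 ± 0.22) turned without sham 3, crush 2 or crush 3 and with median scaling. The neurofilament Nefl was at 1288, 1064 and 1039 RPKM and 1102, 1884 and 987 RPKM, and Thy1 at 66.3, 67.5 and 92.9 RPKM and 54.1, 54.9 and 72.1 RPKM. Rbpms, an RNA-binding protein of nearly all ganglion cells, was at 103, 127 and 115 RPKM after crush, below 212, 183 and 198 RPKM after sham (-0.78 ± 0.21, adjusted p = 0.198). Markers of direction-selective ganglion cells (ooDSGCs) did not pass in any of 6 genes, and their mean log2 level was 2.53 ± 0.42 in crush and 2.32 ± 0.81 in sham (SD, n = 3).

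Transcripts of other retinal cells were present in every library, and the mean level of each marker list overlapped between groups. The mean log2 level of 15 rod markers was 5.93 ± 0.72 in crush and 5.45 ± 0.82 in sham (exact permutation test, two-sided, p = 0.5, where 3 against 3 cannot go below 0.1), and their summed RPKM ranged from 1221 to 3547 and from 805.9 to 2201. Cone markers had means of 2.27 ± 1.63 and 1.65 ± 1.82, bipolar markers 3.76 ± 0.98 and 3.45 ± 0.40, and amacrine markers 2.60 ± 0.31 and 2.60 ± 0.53. Markers of Müller glia and astrocytes averaged 2.79 ± 1.14 in crush, where crush 1 reached 4.11, and 2.21 ± 0.14 in sham. Their summed RPKM was 598.1 to 801.1 after crush, above 253.1 to 333.7 after sham, and most of it was clusterin (Clu), at 536, 557 and 682 RPKM against 236, 211 and 287 RPKM, a gene that neurons also express. Gfap was at 0 in all 6 libraries. Microglial markers were near 0 (0.31 ± 0.27 and 0.33 ± 0.08, with C1qb, C1qc and Tyrobp at 0 in all 6), as were vascular and pericyte markers (0.17 ± 0.16 and 0.31 ± 0.15, with Cdh5 and Kcnj8 at 0). No gene of these lists passed the threshold. With the rod mean as a covariate, 50 of the 67 calls remained. Among those lost were Ddit3, Arid5a, Cdkn1a and Irs2, taken up below. Beyond that, the part of other cells in the results was not tested.

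**Figure D2:**
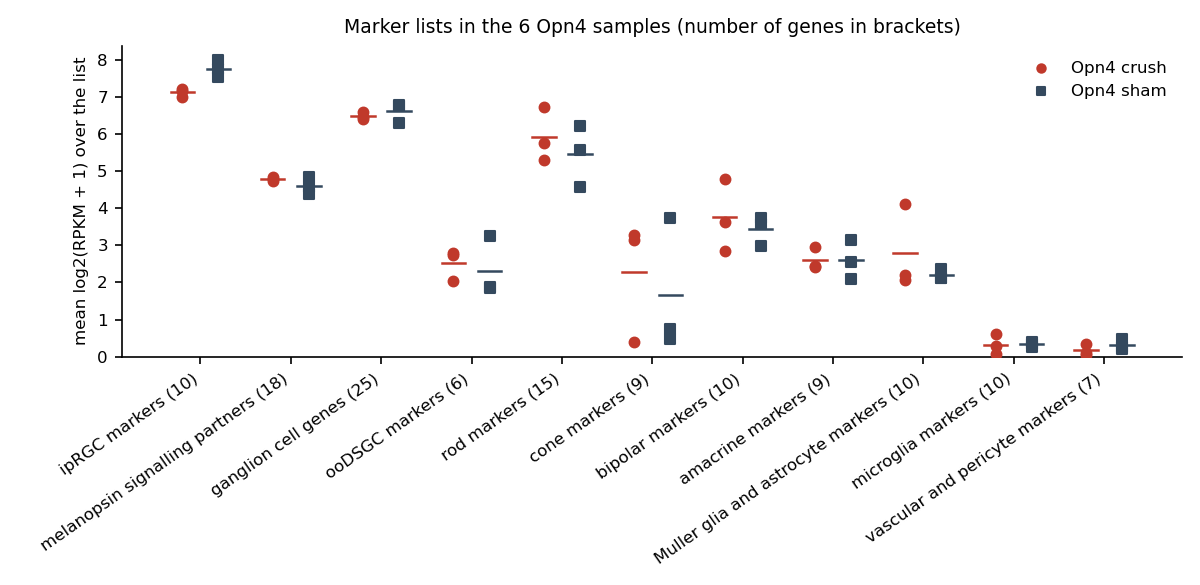
Mean log2(RPKM + 1) over each marker list (vertical axis) in the 3 Opn4 crush libraries (circles) and the 3 Opn4 sham libraries (squares), with group means as bars and the number of genes in brackets. Rod and bipolar levels overlap between groups, and microglial and vascular levels stay near 0. The mean of the ipRGC markers is lower in every crush library than in any sham library, though no single marker passed. The exact permutation test of that mean, two-sided, gave p = 0.1, the smallest possible with 3 against 3.

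Among nuclear factors of the injury signal, Jun rose evenly. Jun (ENSMUSG00000052684, chr4:95049034-95052222), the AP-1 factor phosphorylated by JNK, was at 223, 219 and 294 RPKM in crush, against 10.9, 11.3 and 11 RPKM in sham, a ratio of means of 22.2. The groups were far apart, and the sham libraries were nearly equal (4.34 ± 0.27, adjusted p = 7.53e-06). Jund (ENSMUSG00000071076, chr8:70697739-70700616), its family member, was at 214, 209 and 193 RPKM against 69.7, 62.8 and 67.6 RPKM (1.61 ± 0.19, adjusted p = 0.00227). The antisense transcript BC042782, which overlaps Jun on the opposite strand, rose too (2.82 ± 0.44), and Gm11175, of which 97% of the sequence lies in Jund, rose by 1.56 ± 0.19. The sources used here do not state whether reads were counted by strand, so these partners are not separate evidence. The BC042782 call was lost without sham 2 or 3 or crush 3 (adjusted p up to 0.0955).

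Of 11 tested AP-1 factors Jun and Jund alone passed, beside 0.274% of all genes called higher, and the list median was 0.71. Fos, the usual partner of JUN, was at 208, 247 and 417 RPKM after crush and 147, 265 and 89.6 RPKM after sham, with overlap (0.87 ± 0.57, adjusted p = 0.694). Junb overlapped as well, at 84.3, 191 and 81.4 RPKM against 68.5, 152 and 56.6 RPKM. Jdp2, a repressor that binds AP-1 sites, stood at 40.1, 17.7 and 18.4 RPKM, below 44.8, 41.9 and 61 RPKM in sham (-1.01 ± 0.38, adjusted p = 0.403). None of 15 genes of the DLK-JNK cascade, kinases and scaffolds, passed (median 0.19). Mapk9 (JNK2) was at 112, 122 and 182 RPKM after crush and 100, 128 and 130 RPKM after sham, and the upstream kinase Map2k4 at 96.4, 118 and 110 RPKM, below 144, 160 and 154 RPKM (-0.50 ± 0.22, adjusted p = 0.502).

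Atf3 appeared almost from nothing. This stress-induced factor (ENSMUSG00000026628, chr1:191170296-191183340) was at 77.9, 56.4 and 43.4 RPKM after crush, against 0, 0.2 and 0.0469 RPKM after sham, where it rested on 8 recovered reads in all 3 libraries against 6527 after crush (5.76 ± 0.37, adjusted p = 7.53e-06). Ddit3, which encodes the stress factor CHOP, was at 67.3, 194 and 90.9 RPKM against 36.1, 30.2 and 18.6 RPKM. Crush 2 was the highest and the groups did not overlap (1.92 ± 0.34, adjusted p = 0.0289), but the call was lost without sham 2 or 3 or crush 2 or 3 (adjusted p up to 0.169). It was also lost with the rod covariate, without the filter on low values and in the 6 Opn4 libraries alone. Ddit3 overlaps other genes on the opposite strand. Atf3 and Ddit3 were the called members of 16 tested ATF and C/EBP factors, beside 0.274% of all genes called higher. Differences were above 0 in 13 of the 16, with a median of 1.02. Atf4, the translationally controlled factor above both, stood at 99.7, 175 and 129 RPKM after crush and 102, 174 and 115 RPKM after sham (0.05 ± 0.25).

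The promoters of Jun, Atf3 and Ddit3 are shown because the proteins belong to one family, the basic leucine zipper factors, whose members can pair with one another. Each window holds 250 bases before and 50 after the annotated start, from RefSeq on build GRCm38.p6, 5′ to 3′ on the gene's strand. Capitals mark a match, on either strand, to the ATF variant TGACATCA in Jun, to the C/EBP-ATF element TGATGNAA in Atf3 and to the AP-1 site TGANTCA in Ddit3. They begin 45, 110 and 242 bases before the start and share no base with another motif searched. A different motif is marked in each gene. It was the only one in that window of the AP-1, CRE, ATF and C/EBP-ATF motifs counted below. Jun lies at chr4:95052173-95052472 on the minus strand, Atf3 at chr1:191183284-191183583 on the minus strand and Ddit3 at chr10:127290543-127290842 on the plus strand.
Jun: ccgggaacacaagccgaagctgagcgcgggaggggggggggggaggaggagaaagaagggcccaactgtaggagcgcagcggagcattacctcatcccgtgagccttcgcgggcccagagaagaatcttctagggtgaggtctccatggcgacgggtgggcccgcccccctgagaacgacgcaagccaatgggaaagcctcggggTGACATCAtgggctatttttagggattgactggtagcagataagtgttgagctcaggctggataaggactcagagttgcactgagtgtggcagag
Atf3: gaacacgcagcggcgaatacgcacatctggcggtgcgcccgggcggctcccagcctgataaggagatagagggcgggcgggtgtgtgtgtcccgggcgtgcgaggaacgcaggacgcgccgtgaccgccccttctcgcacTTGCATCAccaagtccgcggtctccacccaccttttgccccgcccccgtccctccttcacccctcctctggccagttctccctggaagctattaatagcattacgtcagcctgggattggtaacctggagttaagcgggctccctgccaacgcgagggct
Ddit3: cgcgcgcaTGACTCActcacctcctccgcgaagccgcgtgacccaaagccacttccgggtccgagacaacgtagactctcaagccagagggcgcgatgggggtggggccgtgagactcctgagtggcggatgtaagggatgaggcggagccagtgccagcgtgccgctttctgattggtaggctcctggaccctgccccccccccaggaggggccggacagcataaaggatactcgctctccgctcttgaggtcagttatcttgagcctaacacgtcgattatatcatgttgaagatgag

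Such matches are not rare, so the share over all promoters is the measure to read them against. Windows were found for 10341 tested genes, among them 28 of the genes that rose and 9 of those that fell. The AP-1 site TGANTCA was in 4 of the 28 (14.3%), beside 6.11% of all windows, and the ATF variant TGACATCA also in 4 (14.3%), beside 2.71%. The CRE palindrome TGACGTCA was in 2 of the 28 (7.14%), beside 3.51%, and the C/EBP-ATF element in 2 (7.14%), beside 2.71%. In the 9 windows of genes that fell, the ATF variant was in 1 (11.1%) and the other 3 motifs in 0. In the 29 windows of the integrated stress response list, the C/EBP-ATF element was in 9 (31%). These counts describe letters in a window, not binding.

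**Figure D3:**
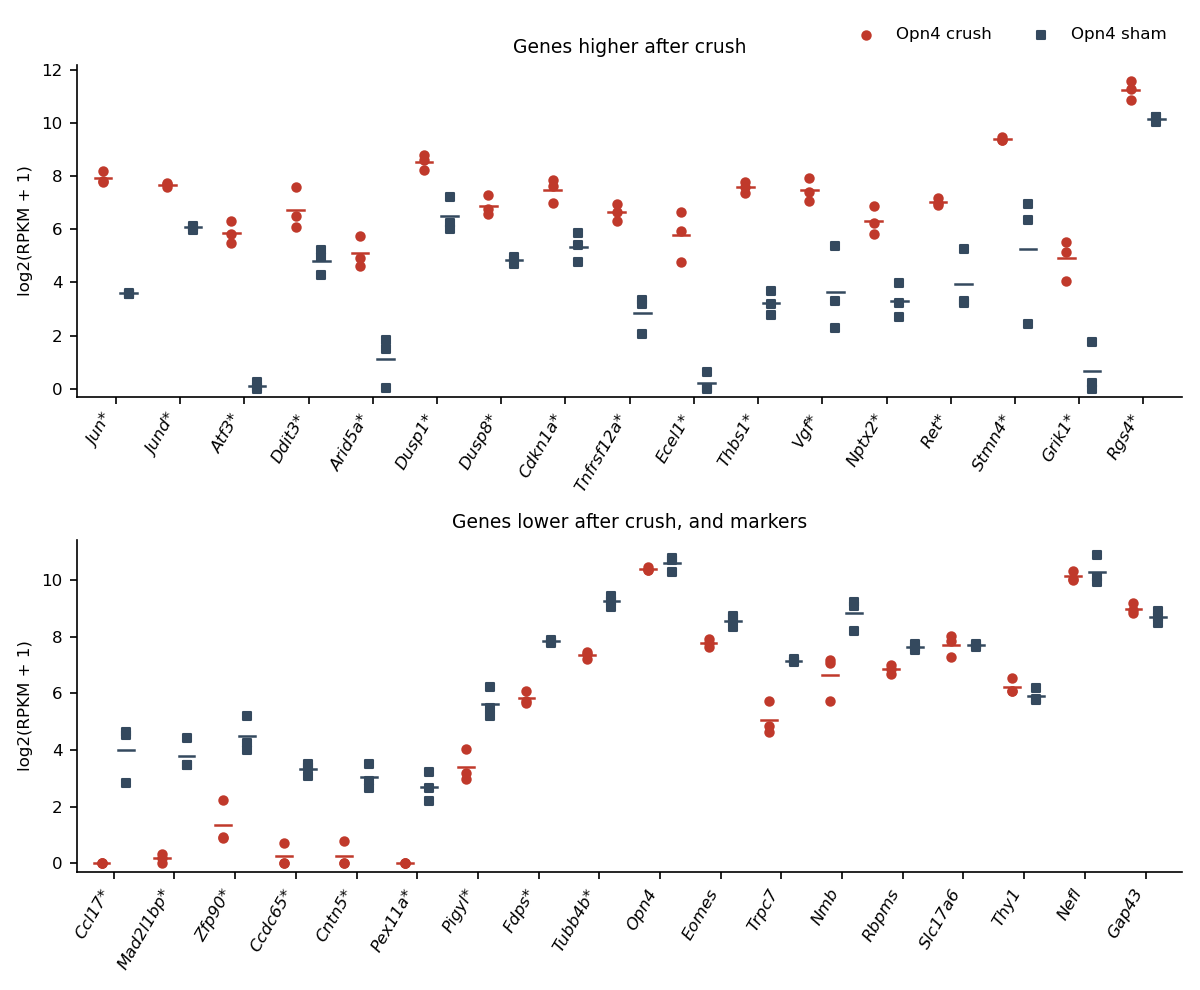
Values of selected genes in each Opn4 library on the log2(RPKM + 1) scale (vertical axis), with crush as circles, sham as squares and group means as bars; an asterisk marks an adjusted p under 0.05. Jun, Atf3 and Ecel1 are clear of sham in every crush library, Fdps and Tubb4b are below it, and Opn4, Slc17a6, Nefl and Gap43 overlap.

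Of 10 phosphatases of the MAP kinases 2 rose, Dusp1 and Dusp8, beside 0.274% of all genes called higher. Dusp1, a nuclear phosphatase that inactivates JNK and p38, was at 299, 445 and 389 RPKM in crush, against 64.2, 149 and 74.5 RPKM in sham. Dusp8, a phosphatase of JNK in neurons, was at 156, 108 and 94.9 RPKM against 27.8, 29.9 and 25 RPKM. Both were higher in 3 of 3 crush libraries, by 2.05 ± 0.29 (adjusted p = 0.00789) and 2.05 ± 0.30 (adjusted p = 0.0121), and both lost the call without sham 3 (adjusted p = 0.0694 for Dusp1 and 0.0897 for Dusp8). The median over the 10 was 1.26. Dusp26, the next most abundant, stood at 150, 246 and 214 RPKM and 171, 131 and 150 RPKM, with overlap.

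Of 17 immediate early genes, Arid5a alone passed, beside 0.274% of all genes called higher. Differences were above 0 in 15 of the 17, and the median was 0.99. Arid5a, an RNA-binding protein that stabilises cytokine transcripts in immune cells, was at 52.7, 29.5 and 23.5 RPKM in crush, against 0.0113, 1.8 and 2.59 RPKM in sham. The groups were well apart (3.98 ± 0.70, adjusted p = 0.0282), yet leaving out any 1 of the 6 libraries ended the call (adjusted p from 0.0786 to 0.0999). Egr1, a factor induced by calcium and ERK, was at 111, 159 and 99 RPKM, above 11.8, 46 and 33.7 RPKM (2.14 ± 0.45), and missed the threshold (adjusted p = 0.0804, and 0.025 with equal weights). Btg2, an antiproliferative gene, stood at 137, 121 and 129 RPKM, above 32.3, 53.2 and 44.2 RPKM (1.58 ± 0.58, adjusted p = 0.394). Nr4a1 overlapped, at 38.8, 73.6 and 73.1 RPKM against 8.06, 150 and 40.9 RPKM.

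Among regulators of the mitochondrial death pathway, Bax, Bcl2l1 and Hrk did not pass. Bax, which permeabilises mitochondria, was at 30.5, 50.4 and 35.8 RPKM after crush and 33.2, 33.3 and 43.8 RPKM after sham, and the protective Bcl2l1 at 55.7, 48 and 83.2 RPKM after crush and 76.3, 69.1 and 69.6 RPKM after sham, both with overlap. Hrk, a BH3-only killer protein of axotomised neurons that is named after its values were seen, was at 14.7, 7.91 and 7.95 RPKM after crush, above 2.22, 0 and 1.2 RPKM after sham (2.49 ± 0.56, adjusted p = 0.0977).

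Among 17 p53 targets Cdkn1a alone rose, beside 0.274% of all genes called higher. This cell cycle inhibitor (p21) was at 200, 125 and 231 RPKM in crush, against 41.3, 57.7 and 26.1 RPKM in sham. The groups did not overlap (2.15 ± 0.41, adjusted p = 0.0461), and leaving out any 1 of the 6 libraries ended the call (adjusted p from 0.0633 to 0.237). The median over 17 targets was 0.19. Gadd45b, a stress sensor, was at 74.3, 64.9 and 71.3 RPKM, above 41.4, 51.8 and 23 RPKM, and did not pass (0.91 ± 0.65). Plk2, a polo-like kinase, was at 0.247 RPKM in crush 1 but 67.3 and 77.9 RPKM in crush 2 and 3, and at 48.9, 88 and 45.1 RPKM in sham.

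Genes tied to axon regrowth in other injured neurons held 5 of the rises. Of 36 tested, 5 rose and none fell, with a median of 0.53 (the background share of rises was 0.274%): Atf3, Jun, Ecel1, Stmn4 and Tnfrsf12a. Ecel1 (ENSMUSG00000026247, chr1:87147655-87156521), a membrane peptidase induced by nerve injury, was at 26.5, 101 and 59.7 RPKM after crush, against 0, 0.53 and 0.0266 RPKM after sham. It was far higher in each crush library (5.58 ± 0.52, adjusted p = 0.00036), although its crush values were widely spread and the call was lost with voom on recovered reads (adjusted p = 0.407) and in the 6 Opn4 libraries alone (0.0859). Tnfrsf12a (ENSMUSG00000023905, chr17:23675447-23677449), the receptor for the cytokine TWEAK, was at 78.6, 123 and 99.3 RPKM, against 8.02, 3.16 and 9.08 RPKM (3.78 ± 0.38, adjusted p = 0.000701, and 0.0859 in the 6 Opn4 libraries alone). It was also the one call of 17 genes of the TNF receptor family and NF-kappaB, whose median was 0.26.

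Stmn4, a stathmin that loosens microtubules, had the highest level of the 5. It stood at 663, 722 and 651 RPKM in crush, against 4.37, 80.4 and 124 RPKM in sham. The crush libraries were nearly equal and the sham libraries were not, with sham 1 far below the others (4.16 ± 0.80, adjusted p = 0.0473). The call was lost without sham 2 or any crush library (adjusted p up to 0.137). It was also lost with a pseudocount of 0.1, with median scaling, with a weight for each library and without the filter on low values. Gap43, the growth cone protein, overlapped at 456, 489 and 589 RPKM after crush and 486, 356 and 417 RPKM after sham (0.29 ± 0.23, adjusted p = 0.758). Sprr1a, strongly induced in regenerating sensory neurons of rodents, was at 0, 0 and 0.586 RPKM and 0, 0.657 and 0.462 RPKM, near the lower end of what this depth detects. Sox11 was low and uneven, at 0.946, 0 and 5.4 RPKM after crush and 1.3, 0 and 0.162 RPKM after sham, with overlap. Basp1 and Stmn2, abundant axonal proteins, differed by 0.26 ± 0.21 and -0.44 ± 0.19, and neither passed.

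In the Krüppel-like and Sox list none of 15 passed and the median was 0.35. Klf6, which promotes neurite growth in mouse neurons, was at 201, 114 and 153 RPKM after crush, above 99.9, 87.4 and 108 RPKM after sham (0.63 ± 0.25, adjusted p = 0.431). Klf9, a repressor of growth, was at 124, 82.4 and 108 RPKM, above 46.2, 53 and 57.5 RPKM (0.98 ± 0.28, adjusted p = 0.226). Stat3, the mediator of CNTF-type cytokines, stood at 37.7, 52.3 and 66.4 RPKM, above 17.6, 26.7 and 24 RPKM (1.15 ± 0.37, adjusted p = 0.303), and none of 22 genes of cytokine and JAK-STAT signalling passed (median -0.04). In the PI3K-mTOR list of 23 genes (median 0.05), Irs2 alone rose, beside 0.274% of all genes called higher. This docking protein of insulin and IGF receptors was at 61.6, 73.1 and 42.6 RPKM against 12.5, 23.2 and 14.7 RPKM (1.77 ± 0.31, adjusted p = 0.0284), and lost the call without sham 1 or 3 or any crush library (adjusted p up to 0.163).

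Among 13 tested growth factor receptors and ligands Ret alone rose, beside 0.274% of all genes called higher. It passed with any library left out. Ret (ENSMUSG00000030110, chr6:118151748-118197744), the receptor tyrosine kinase for GDNF-family ligands, was at 119, 126 and 146 RPKM in crush, against 8.41, 37.1 and 8.79 RPKM in sham. Sham 2 was the highest sham library and still lay far below crush (3.11 ± 0.42, adjusted p = 0.00742). The call was lost in the 6 Opn4 libraries alone (adjusted p = 0.171) and without both libraries that stood apart (0.0565). None of the other 12 tested receptors and ligands passed, and the list median was 0.54. The receptor Ntrk3 stood at 19.5, 17.1 and 27 RPKM and 16.7, 29.2 and 18.3 RPKM, and the neurotrophin Bdnf at 19.2, 21 and 28.3 RPKM and 9.73, 24.7 and 14.3 RPKM. Igf1, the ligand with the highest level of the list, was at 155, 117 and 138 RPKM after crush, above 90.8, 95.1 and 93.2 RPKM after sham, and did not pass (0.54 ± 0.62).

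Thbs1 was the one thrombospondin or receptor called of 12, beside 0.274% of all genes called higher. Thbs1 (thrombospondin 1, ENSMUSG00000040152, chr2:118111876-118127133), a secreted matrix protein that promotes synapse formation and binds CD47, syndecans and integrins, was at 220, 166 and 191 RPKM in crush, against 5.89, 8.03 and 12 RPKM in sham. The groups were far apart (4.36 ± 0.50, adjusted p = 0.00187), with any library left out too, but adding 0.1 in place of 1 before the log ended the call (adjusted p = 0.194). Its receptors did not pass. Sdc2 was at 149, 125 and 186 RPKM after crush and 90.8, 101 and 135 RPKM after sham, and Itgb1 at 259, 189 and 209 RPKM and 208, 236 and 175 RPKM. Both overlapped between groups.

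Receptors and guidance cues that restrain axon growth were not called. In 15 growth inhibitor receptors and effectors the median was 0.06. Ptprs, the receptor for chondroitin sulphate proteoglycans, was at 383, 348 and 368 RPKM after crush, above 173, 143 and 195 RPKM after sham (1.11 ± 0.25, adjusted p = 0.106, and 0.0147 with equal weights). Rtn4rl1, of the Nogo receptor family, was at 64.1, 87.9 and 48.4 RPKM, below 155, 131 and 95.5 RPKM (-0.93 ± 0.34, adjusted p = 0.388), while Lingo1 overlapped. None of 27 axon guidance genes passed (median 0.32). In 14 genes of NAD metabolism and axon degeneration, 11 differences were below 0 with none called (median -0.31), and Nmnat2, an NAD-synthesising enzyme that keeps axons alive, was at 33.7, 67.1 and 22.7 RPKM, below 71.6, 86.9 and 79.3 RPKM (-1.06 ± 0.35, adjusted p = 0.324).

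Secreted and synaptic genes gave 3 further rises. Vgf, a neuropeptide precursor regulated by neurotrophins, was at 133, 169 and 246 RPKM in crush, against 8.88, 40 and 3.94 RPKM in sham. Sham 2 stood above the other sham libraries but below all crush libraries (3.82 ± 0.56, adjusted p = 0.0121, lost without crush 3 at 0.0702). Nptx2, an activity-regulated pentraxin that gathers AMPA receptors, was at 75.2, 55.6 and 116 RPKM against 8.27, 14.6 and 5.56 RPKM (3.02 ± 0.54, adjusted p = 0.0327). Grik1, a kainate receptor subunit, was at 44.6, 15.7 and 34.5 RPKM against 0, 2.34 and 0.163 RPKM (4.26 ± 0.69, adjusted p = 0.0191). The Nptx2 call was lost without any 1 library (adjusted p up to 0.188), and that of Grik1 without sham 1 or 3 or crush 1 or 3 (up to 0.12).

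These were the only calls in the lists of neuropeptides, receptors, channels and synaptic release, beside 0.274% of all genes called higher. Neuropeptide and granule genes had a median of 0.02 over 26, with Scg2, the most abundant, at 4757, 4770 and 5418 RPKM after crush, above 2791, 3606 and 2329 RPKM after sham (0.80 ± 0.26, adjusted p = 0.307). Glutamate receptors had a median of -0.04 over 20, and receptors for GABA, glycine and acetylcholine 0.02 over 22. Sodium, calcium and HCN channels (median -0.28 over 24) and potassium channels (-0.13 over 26) held no call. In 26 synaptic release genes the median was 0.01 with no call, although Syn1, a vesicle tether, was at 620, 684 and 777 RPKM after crush, above 497, 459 and 379 RPKM after sham, and Snap25, a fusion protein, at 1289, 1293 and 1119 RPKM, below 1477, 1619.7 and 1622 RPKM.

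The integrated stress response, in which phosphorylated eIF2 alpha favours ATF4 targets such as amino acid transporters, was represented by 2 rises in 34 tested genes, Ddit3 and Slc7a5, where 0.274% of all genes rose. Differences were above 0 in 29 of the 34, and the median was 0.85, against -0.02 over all genes. Slc7a5, the light chain of the transporter for large neutral amino acids, was at 82.3, 67.3 and 81.2 RPKM in crush, against 19.6, 15.9 and 29.2 RPKM in sham. The groups were well apart (1.82 ± 0.30, adjusted p = 0.0206), but the call was lost without sham 1 or 2 or any crush library (adjusted p up to 0.105). Its heavy chain Slc3a2 was at 125, 185 and 123 RPKM, above 119, 65.7 and 67.4 RPKM (0.80 ± 0.29), and the asparagine synthetase Asns at 244, 172 and 176 RPKM, above 100, 111 and 132 RPKM (0.77 ± 0.23). Neither passed, with adjusted p of 0.389 for Slc3a2 and 0.254 for Asns.

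With equal weights, where 0.69% of all genes were called higher, 3 more of this list passed, and they are named after their values were seen. Phgdh, the entry enzyme of serine synthesis, was at 2.48, 19.1 and 18.5 RPKM after crush, against 0, 0 and 0.0935 RPKM after sham (3.43 ± 0.75, adjusted p = 0.0898, and 0.0225 with equal weights). Atf5 stood at 6.11, 8.5 and 11.2 RPKM against 0.811, 1.26 and 1.42 RPKM, and Chac1, a glutathione-degrading enzyme, at 16.9, 29.6 and 34.9 RPKM against 9.12, 8.09 and 6.56 RPKM. Crush exceeded sham in every library for all 3. Cytosolic aminoacyl-tRNA synthetases, many of them ATF4 targets, had 15 of 20 differences above 0 and no call (median 0.41). Sars was at 235, 438 and 397 RPKM, above 162, 154 and 195 RPKM (1.02 ± 0.22, adjusted p = 0.0898), and Nars at 426, 520 and 426 RPKM, above 199, 281 and 319 RPKM (0.80 ± 0.18, adjusted p = 0.107).

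In the response to unfolded protein in the endoplasmic reticulum none of 22 genes passed and the median was 0.07. The chaperone Hspa5 (BiP) was at 430, 478 and 451 RPKM after crush and 389, 395 and 445 RPKM after sham, and Hsp90b1 at 308, 356 and 329 RPKM and 342, 401 and 355 RPKM, both overlapping. Cytosolic heat shock proteins (median 0.19 over 19) also held no call, with Hspa8 at 1096, 1202 and 1267 RPKM after crush and 992, 1174 and 929 RPKM after sham.

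Defence against oxidants and iron rose in 2 of 19 genes, beside 0.274% of all genes called higher, with a list median of 0.21. Srxn1, the sulfiredoxin that repairs peroxiredoxins, was at 638, 622 and 568 RPKM in crush, against 320, 312 and 227 RPKM in sham. It was higher in all 3 crush libraries by 1.10 ± 0.18 (adjusted p = 0.0191), a call lost without crush 1, 2 or 3 or sham 2 or 3 (adjusted p up to 0.12). Ftl1, the ferritin light chain, was at 276, 343 and 390 RPKM against 183, 182 and 150 RPKM (0.96 ± 0.18, adjusted p = 0.0386), and lost its call without any 1 library but crush 1 (up to 0.207). The entries Ftl2, Gm10116, Gm15590 and Gm22133 rose by 0.89 to 0.93, share their sequence with Ftl1, and are not separate signals. Fth1, the heavy chain, was at 1614, 1516 and 1344 RPKM, below 2096, 1666 and 1709.7 RPKM (-0.29 ± 0.17, adjusted p = 0.658). Sqstm1, an autophagy receptor and NRF2 target, missed the threshold at 1189, 1175 and 1248 RPKM against 805, 644 and 796 RPKM (0.69 ± 0.14, adjusted p = 0.0616). In the lysosome and autophagy list 19 of 22 differences were above 0, none passed and the median was 0.39.

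Among 13 chemokines and secreted cytokines (median 0.04), Ccl17 was the one call, which fell, beside 0.0931% of all genes called lower. Ccl17, a ligand of the receptor CCR4, was at 0 RPKM in all 3 crush libraries, against 22, 6.07 and 24.2 RPKM in sham. Counting a floor of 3 reads over the crush group, it was at least 181-fold lower, for counting error only (-4.00 ± 0.54, adjusted p = 0.00675, lost without sham 3 at 0.0635). Spp1 (osteopontin), a secreted protein of alpha ganglion cells and of macrophages, was at 503, 680 and 633 RPKM in crush, against 151, 33.7 and 0.593 RPKM in sham. Sham values were widely spread, and the difference of 4.88 ± 2.08 did not pass (adjusted p = 0.486). In 11 genes of MHC class I presentation (median 0.29) none passed, though H2-D1 was at 462, 509 and 555 RPKM, above 329, 265 and 291 RPKM (0.78 ± 0.20, adjusted p = 0.172), and B2m at 77.7, 106 and 244 RPKM, above 23.8, 41.7 and 24 RPKM (2.10 ± 0.88, adjusted p = 0.473). Interferon-stimulated genes had a median of 0.98 over 16 with no call, and Ifit1 reached 102 RPKM in crush 2 alone, beside 7.19 and 12.8 RPKM in crush 1 and 3 and 8.61, 19.9 and 5.55 RPKM in sham.

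**Figure D4:**
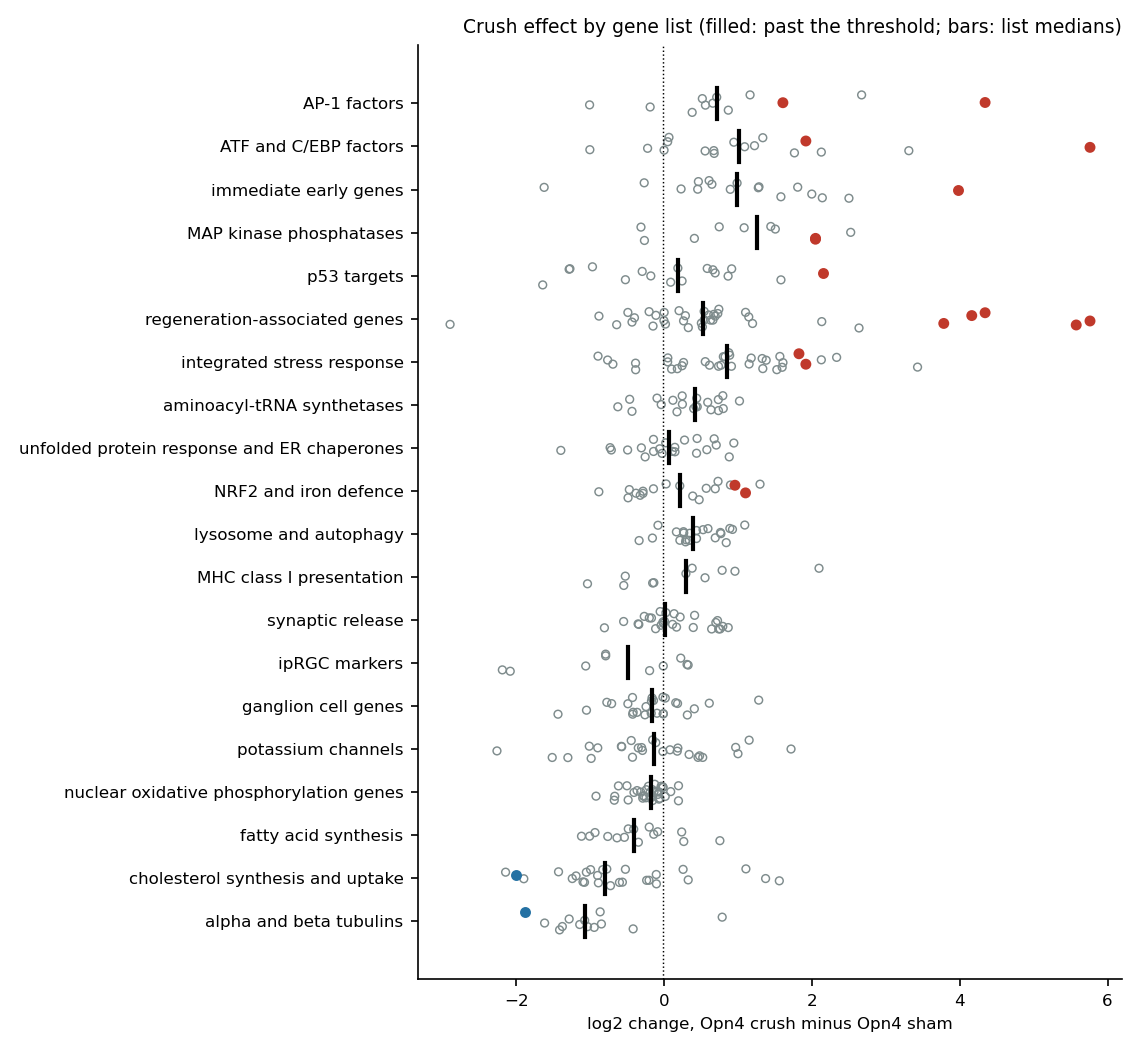
Change after crush (horizontal axis, difference of log2(RPKM + 1), Opn4 crush minus Opn4 sham) of each tested gene in 20 lists; filled points passed the threshold, bars are list medians and the dotted line is the median of all genes. The medians of the AP-1 and stress response lists lie right of the line with few filled points, and those of cholesterol synthesis (-0.80) and tubulins (-1.08) lie left of it.

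Of 13 tested tubulins, the subunits of microtubules, 1 passed, Tubb4b, which fell, beside 0.0931% of all genes called lower. Without regard to the threshold, 12 had every crush library below every sham library, beside 7.33% of all genes, and the median was -1.08. Tubb4b (ENSMUSG00000036752, chr2:25222160-25224702), a widely expressed beta tubulin, was at 169, 178 and 150 RPKM in crush, against 620, 538 and 690 RPKM in sham, a ratio of means of 0.269. It fell by 1.88 ± 0.26 (adjusted p = 0.00772, lost without sham 3 at 0.08). The near copy Tubb4b-ps1 (-1.90 ± 0.28), of which 65.4% of the sequence lies in Tubb4b, and Fam166a (-1.92 ± 0.33), which overlaps Tubb4b on the opposite strand, also passed and are not separate signals.

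The most abundant alpha tubulins differed less. Tuba1a, the main neuronal alpha tubulin, was at 3538, 3876 and 2669 RPKM after crush, below 6335, 5393 and 6487 RPKM after sham (-0.87 ± 0.34, adjusted p = 0.431). Tuba1b was at 1713, 1776 and 1294 RPKM, below 3842, 3173 and 3476 RPKM (-1.14 ± 0.35, adjusted p = 0.271). Tubb2a was at 901, 728 and 563 RPKM, below 1999, 1668 and 2106 RPKM (-1.42 ± 0.32, adjusted p = 0.107, and 0.0137 with equal weights). Tubb3, the neuronal beta tubulin used to stain ganglion cells, was closest to sham among the 12, at 561, 669 and 529 RPKM against 915, 686 and 759 RPKM (-0.42 ± 0.28). Tubb6, named after its values were seen, was the exception, at 40.4, 29.6 and 21 RPKM after crush and 12.6, 15.9 and 22.5 RPKM after sham (0.79 ± 0.45). Tubulin genes are near copies of one another, so reads may be split between them. With equal weights 7 of 13 passed, beside 0.421% of all genes lower in that fit.

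Elsewhere in the cytoskeleton Stmn4 and Csrp1 were the calls, both higher, beside 0.274% of all genes called higher. Stathmins and microtubule proteins other than Stmn4 held no call (list median -0.20 over 24), with Stmn1 at 372, 627 and 475 RPKM, below 922, 672 and 938 RPKM (-0.80 ± 0.26, adjusted p = 0.307). Actin genes had a median of 0.03 over 24, and Actb (-0.12 ± 0.20) and Actg1 (-0.13 ± 0.20) overlapped between groups. Csrp1, a LIM protein of actin bundles, was at 18.2, 24.1 and 22.8 RPKM against 4.17, 3.93 and 3.42 RPKM (2.22 ± 0.41, adjusted p = 0.0366, lost without any 1 library with adjusted p up to 0.188). Neurofilaments had a median of -0.18 over 9 and axonal transport motors 0.00 over 21, with no call.

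Of 28 tested genes of cholesterol synthesis and uptake, 1 passed, Fdps, which fell, beside 0.0931% of all genes called lower. Differences were below 0 in 23 of the 28 and above 0 in 5, with a median of -0.80, and 15 had all crush libraries below all sham libraries, beside 7.33% of all genes. Fdps (ENSMUSG00000059743, chr3:89093592-89101967), the farnesyl diphosphate synthase at the branch to sterols and prenylated proteins, was at 49.9, 67 and 52 RPKM in crush, against 225, 222 and 237 RPKM in sham, a ratio of means of 0.247. It fell by 2.01 ± 0.32 (adjusted p = 0.0191), and the call was lost without any 1 library but crush 2 (adjusted p up to 0.124). The pseudogenes Gm3571, Gm5873 and Gm8163, with 67.6%, 40.4% and 29.1% of their sequence in Fdps, fell too (-1.99, -1.96 and -1.86) and are not separate signals.

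Hmgcs1, which makes HMG-CoA, was just short of the threshold. It was at 290, 248 and 344 RPKM in crush, against 540, 719 and 602 RPKM in sham (-1.08 ± 0.21, adjusted p = 0.054, and 0.0098 with equal weights). Acat2, the enzyme before it, was at 110, 85.8 and 95.1 RPKM, below 208, 278 and 210 RPKM (-1.24 ± 0.30, adjusted p = 0.139), and the squalene synthase Fdft1 at 102, 186 and 111 RPKM, below 253, 250 and 188 RPKM (-0.83 ± 0.27, adjusted p = 0.302). Ebp, a late isomerase named after its values were seen, went the other way, at 37.2, 30.6 and 36.4 RPKM, above 5.06, 28.7 and 13.4 RPKM. The sterol sensor Insig1 overlapped at 76.9, 105 and 146 RPKM and 172, 146 and 154 RPKM. With equal weights 4 of the cholesterol list passed, all lower, beside 0.421% of all genes lower in that fit. In fatty acid synthesis 12 of 15 differences were below 0, none passed and the median was -0.41, with the desaturase Scd2 at 195, 127 and 168 RPKM, below 222, 404 and 329 RPKM.

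**Figure D5:**
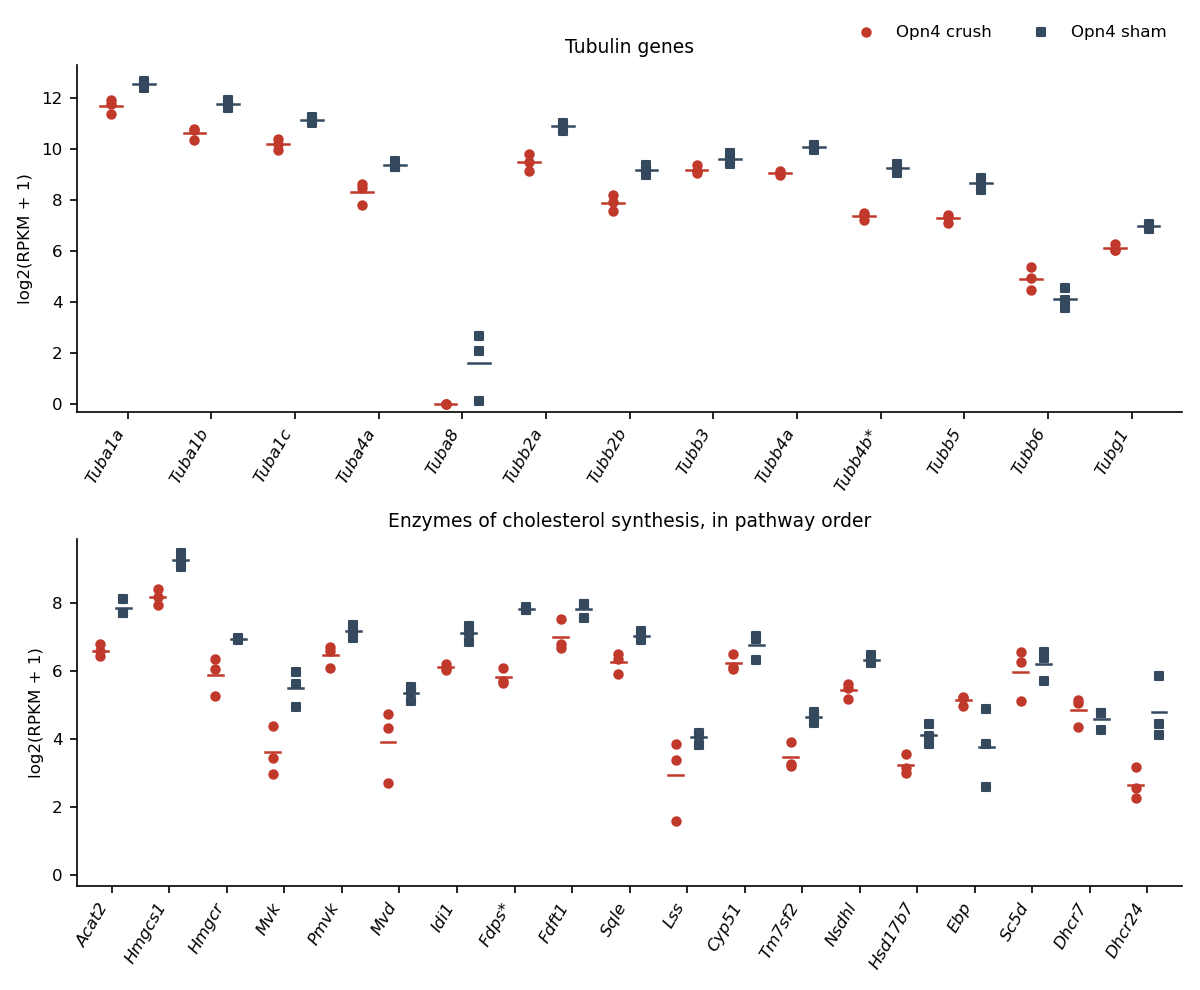
Tubulin genes (upper panel) and enzymes of cholesterol synthesis in pathway order (lower panel) in each Opn4 library, as log2(RPKM + 1), with crush as circles, sham as squares and group means as bars. The crush mean lies below the sham mean in every tubulin but Tubb6 and in every enzyme shown but Ebp and Dhcr7; an asterisk marks the genes past the threshold, Tubb4b and Fdps.

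The promoters of Tubb4b and Hmgcs1 are shown as examples of the lists with medians below 0, with the CCAAT box, bound by NF-Y, in capitals on either strand (ATTGG when reversed). Both are RefSeq windows on GRCm38.p6, at chr2:25224653-25224952 on the minus strand for Tubb4b and chr13:119690101-119690400 on the plus strand for Hmgcs1.
Tubb4b: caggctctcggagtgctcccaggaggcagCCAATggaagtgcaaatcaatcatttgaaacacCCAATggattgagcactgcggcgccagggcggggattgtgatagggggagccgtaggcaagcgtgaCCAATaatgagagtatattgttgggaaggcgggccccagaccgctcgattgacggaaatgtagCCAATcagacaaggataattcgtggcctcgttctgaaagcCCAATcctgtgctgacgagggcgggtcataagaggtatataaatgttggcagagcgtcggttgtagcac
Hmgcs1: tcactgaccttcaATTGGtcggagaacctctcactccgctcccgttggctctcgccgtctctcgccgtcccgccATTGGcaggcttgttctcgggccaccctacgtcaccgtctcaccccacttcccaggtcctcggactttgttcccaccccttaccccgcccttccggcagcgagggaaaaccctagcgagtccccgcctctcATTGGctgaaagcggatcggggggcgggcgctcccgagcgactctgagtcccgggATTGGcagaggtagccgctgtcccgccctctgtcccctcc

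The box was found 5 times in the Tubb4b window and 4 times in that of Hmgcs1. It was in 17 of 19 windows of the cholesterol list (89.5%) and 5 of 10 tubulin windows (50%), beside 42.8% of all windows, 46.4% of those of genes that rose, 44.4% of those of genes that fell and 62.1% of the integrated stress response list. The sterol element ATCACNCCA was in 1 of the 19 cholesterol windows, beside 0.803% of all.

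The lists of energy and protein machinery held no call. Cox6a2, a cytochrome oxidase subunit that rose and is taken up below, was in none of them. Nuclear genes of oxidative phosphorylation had 30 of 34 differences below 0, with a median of -0.18. Glycolysis had a median of -0.11 over 21, with Aldoa at 1979, 2319 and 2085 RPKM after crush and 2384, 2161 and 1935 RPKM after sham, while the neuronal enolase Eno2 was at 1026, 1085 and 1341 RPKM, above 758, 790.3 and 659 RPKM (0.64 ± 0.16, adjusted p = 0.167). Cytosolic ribosomal proteins had a median of 0.02 over 53, and proteasome subunits -0.13 over 31. Hosts of snoRNAs and other noncoding RNAs had a median of 0.17 over 14.

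Of the 67 called genes 41 were in no list. Among those that rose, Clic1, an intracellular chloride channel protein, was at 404, 430 and 475 RPKM in crush, against 75.7, 157 and 123 RPKM in sham (1.93 ± 0.31, adjusted p = 0.0191, lost without sham 1 or 3 or crush 2 or 3, up to 0.105). Rhoq (TC10), a small GTPase of membrane traffic and neurite growth, was at 271, 238 and 188 RPKM against 51, 59.3 and 73.8 RPKM, and passed with any library left out (1.90 ± 0.24, adjusted p = 0.00466), but not in the 6 Opn4 libraries alone (0.0864), with the replicate block (0.0699) or without both libraries that stood apart (0.0538). Pea15a, a phosphoprotein that holds ERK in the cytoplasm, was at 955, 863 and 881 RPKM against 413, 340 and 440 RPKM (1.18 ± 0.22, adjusted p = 0.0344, lost without any 1 library, up to 0.165). All 3 separated the groups in every library.

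Several of the largest rises were in genes nearly silent after sham. Parp3, a DNA repair enzyme, was at 23.3, 34.6 and 33.7 RPKM against 0, 2.26 and 2.8 RPKM (3.75 ± 0.65, adjusted p = 0.0274). Il17rb, a receptor of interleukin 25, was at 12, 30.8 and 29.2 RPKM against 0, 0.582 and 3.21 RPKM (3.62 ± 0.64, adjusted p = 0.0284), and Cd86, a costimulatory protein known from antigen-presenting cells, at 16.6, 5.65 and 5.65 RPKM against 0, 0 and 0.0254 RPKM (3.19 ± 0.48, adjusted p = 0.0135). The summed microglial markers stood at 0.614, 14.6 and 5.59 RPKM in crush and 3.137, 5.87 and 4.48 RPKM in sham, and their part in the Cd86 result was not tested. Cox6a2, a cytochrome oxidase subunit known from muscle and some neurons, was at 3.42, 11.7 and 19.5 RPKM against 0 in all sham libraries, at least 158-fold higher by the floor of 3 reads. Calls were lost without any 1 library for Parp3 (adjusted p up to 0.107), without sham 1 or 2 or crush 2 or 3 for Il17rb (0.125), without sham 2 or 3 for Cd86 (0.0897) and without any 1 library but crush 1 for Cox6a2 (0.112).

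Further falls included genes at low levels after crush. Mad2l1bp, which silences the spindle checkpoint, was at 0.136, 0.261 and 0 RPKM in crush, against 10.1, 10.1 and 20.4 RPKM in sham (-3.61 ± 0.63, adjusted p = 0.0274). Zfp90, a zinc finger repressor that shares most of its sequence with the overlapping Gm26786, was at 3.73, 0.86 and 0.88 RPKM against 35.7, 15.2 and 18 RPKM (-3.14 ± 0.61, adjusted p = 0.0479). Cntn5, a neural adhesion molecule of the contactin family, was at 0.726, 0 and 0 RPKM against 5.29, 6.56 and 10.5 RPKM (-2.77 ± 0.51, adjusted p = 0.0363). Pex11a, which divides peroxisomes, was at 0 in all crush libraries, against 8.24, 5.28 and 3.57 RPKM, at least 259-fold lower by the floor of 3 reads (-2.68 ± 0.51, adjusted p = 0.0461). Ccdc65, a ciliary protein, (-3.09 ± 0.57) and Pigyl, of GPI anchor synthesis (-2.24 ± 0.37), also fell. Calls were lost without any 1 library for Mad2l1bp (adjusted p up to 0.188), Pex11a (0.161) and Ccdc65 (0.201), without any but crush 1 for Zfp90 (0.188) and Cntn5 (0.21), and without sham 1 or 3 or crush 2 or 3 for Pigyl (0.105).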

How the data were processed

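RNA of hand-picked pools of ganglion cells was sequenced, and the authors deposited 1 RPKM value per gene and library. Per the submitters' processing notes, TopHat2 2.0.11, Bowtie, edgeR 3.14.0 and build mm10 were used; how reads were counted, strand and annotation are not given in the sources used here. Comparisons are computed here as log2(RPKM + 1) on genes with at least 1 RPKM in at least 3 of 12 libraries, with limma 3.58.1 in R 4.3.3 (4 group means, intensity trend, 1 weight per cell class: 0.677 for Opn4, 1.48 for HB9), two-sided and Benjamini-Hochberg adjusted over all genes tested. The fit was also run on simulated data with independent noise, without libraries that stand apart or genes that share sequence. That run does not bear on how far calls depend on single libraries. Whole reads, to within 0.01, were recovered for 100% of genes above 0; they summed to 227% to 244% of the scaling totals, for a reason not known, and serve only for floors and 1 alternative. A group at 0 has a floor of 3 reads over the group, for counting error only.

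Members and gene lists were chosen with earlier results of these data known. Genes named are fixed markers, the 15 highest and 15 lowest calls without overlap (predicted and small RNA genes left out), up to 6 called and 4 abundant uncalled members per list, and the 10 most abundant calls outside lists in each direction; others are said to be named after their values were seen. Promoter windows are RefSeq's. One gene is not reported here. Shared sequence was measured as 31-base words of GENCODE transcripts.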

Additional observations from a re-analysis of the deposited data

How the results depend on the processing

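For the Opn4 crush effect 67 genes passed. By direction (Opn4 crush effect, genes higher, 50, and Opn4 crush effect, genes lower, 17) and in all, the counts moved with how the spread was estimated and with single libraries. Equal weights gave 203 genes (126 and 77), and the 6 Opn4 libraries alone 13 (7 and 6). Leaving out both libraries that stood apart, chosen after seeing the data, gave 24 (20 and 4). A pseudocount of 0.1 gave 26 lower, and no filter 32 higher. Leaving out 1 library at a time gave 18 to 52 genes, 17 to 36 higher and 1 to 17 lower. A weight per library, a filter of 5 RPKM, median scaling, quantile normalization, the rod covariate and voom on recovered reads gave 51 to 87. The Opn4 (ENSMUSG00000021799) log2 change turned to 0.068 with quantile normalization and was -0.99 with the rod covariate. The Slc17a6 (ENSMUSG00000030500) log2 change turned to -0.033 with median scaling and ran from -0.13 to 0.23 with a library left out. The Nefl (ENSMUSG00000022055) log2 change ran from -0.36 to 0.11 with a library left out. Median scaling moved the median of all genes to -0.070. The cause of these moves was not tested.

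With the replicate number as a replicate block, 15 genes passed (13 higher, 2 lower). Same-numbered crush and sham libraries did not deviate together (correlations 0.0083, -0.012 and 0.023). Such correlations cannot show whether samples were paired, which the sources used here do not state. Depth limits what can be said of genes near 0 RPKM, and 30 cells per sample limit the rest.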
